A study of Caenorhabditis elegans with 12 samples.

Results

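The 8 genes described here, osm-5, osm-6, dyf-6, ift-81, ift-74, dyf-1, ifta-2 and dyf-13, encode core (B1) subunits of intraflagellar transport complex B in Caenorhabditis elegans. They were taken by gene name from the array annotation, which held all 8 among 17118 named genes. They have 10 of the 22548 probe sets tested, 2 each for osm-5 and ift-81 and 1 for each other gene, and 0 probe sets name a member together with another gene. RNA came from whole embryos at the 3-fold stage, when the embryo has elongated and its sensory neurons are forming cilia. There were 3 genotypes on 1-colour Affymetrix arrays. The double mutant carried daf-19(m86) and daf-12(sa204) in strain JT6924, the single mutant carried daf-12(sa204) in strain JT204, and the wild type was N2 Bristol in strain JT5010.

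Intraflagellar transport moves trains of protein along the microtubules of a cilium, carrying tubulin and other parts to its tip and back. Complex B, with kinesin motors, drives the outward journey, and complex A, with dynein, the return; the B1 subunits form the core on which the peripheral B2 subunits assemble. In C. elegans the cilia of sensory neurons depend on this transport, and many of its genes are named for the defects their mutants show, in osmotic avoidance (osm) or in filling sensory neurons with dye (dyf). The RFX protein DAF-19 activates ciliary genes, and the nuclear hormone receptor DAF-12 is needed for entry into the dauer stage. Loss of daf-19 makes animals form dauer larvae constitutively, and loss of daf-12 prevents this. Both mutant groups lack normal daf-12, so the double mutant against the daf-12 single mutant asks what depends on daf-19.

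All values are the deposited log2 values per probe set, and a difference of 1 means 2-fold. The columns of double mutant replicates 1 and 2 were identical in every probe set and were counted as 1 array, called array 1-2. The double mutant thus has 3 arrays, and the other genotypes have 4 each. The mean of 24 probe sets for spiked-in bacterial RNA was 4.16 to 4.32 on replicates 1 and 2 of the 3 genotypes but 7.16 to 10.21 on their replicates 3 and 4, so the differences of the core genes are also given within these sets. Array medians lay between 6.203 and 6.369. The mean of 11 neuronal markers lay between 8.60 and 9.46 over the arrays, and that of 6 muscle markers between 9.56 and 10.33. The mutated gene itself, daf-19, averaged 8.52 ± 0.32 in the double mutant, 9.97 ± 0.15 in the daf-12 single mutant and 10.14 ± 0.26 in wild type (SD, n = 3, 4 and 4). It was called lower against both (-1.45 and -1.62, limma adjusted p = 0.0281 and 0.00891), and with a replicate block the first call was lost (adjusted p = 0.0553). These values are those of its brighter probe set. A dimmer one gave -1.77 and -1.93 (limma adjusted p = 0.0248 and 0.00826), and a replicate block lost its first call too (adjusted p = 0.0505).

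Transcripts of the 8 core genes were lowest in the double mutant. All 8 had a lower mean there than in the daf-12 single mutant and than in wild type, with median log2 differences of -1.42 and -1.21. Over all genes these medians were -0.02 and -0.03. The 2 comparisons share the double mutant arrays. With limma and Benjamini-Hochberg adjustment over all probe sets, osm-5 was called lower than in wild type and no other member was called in any comparison. In whole embryos, fewer cells of a type and less RNA per cell cannot be told apart.

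**Figure D1:**
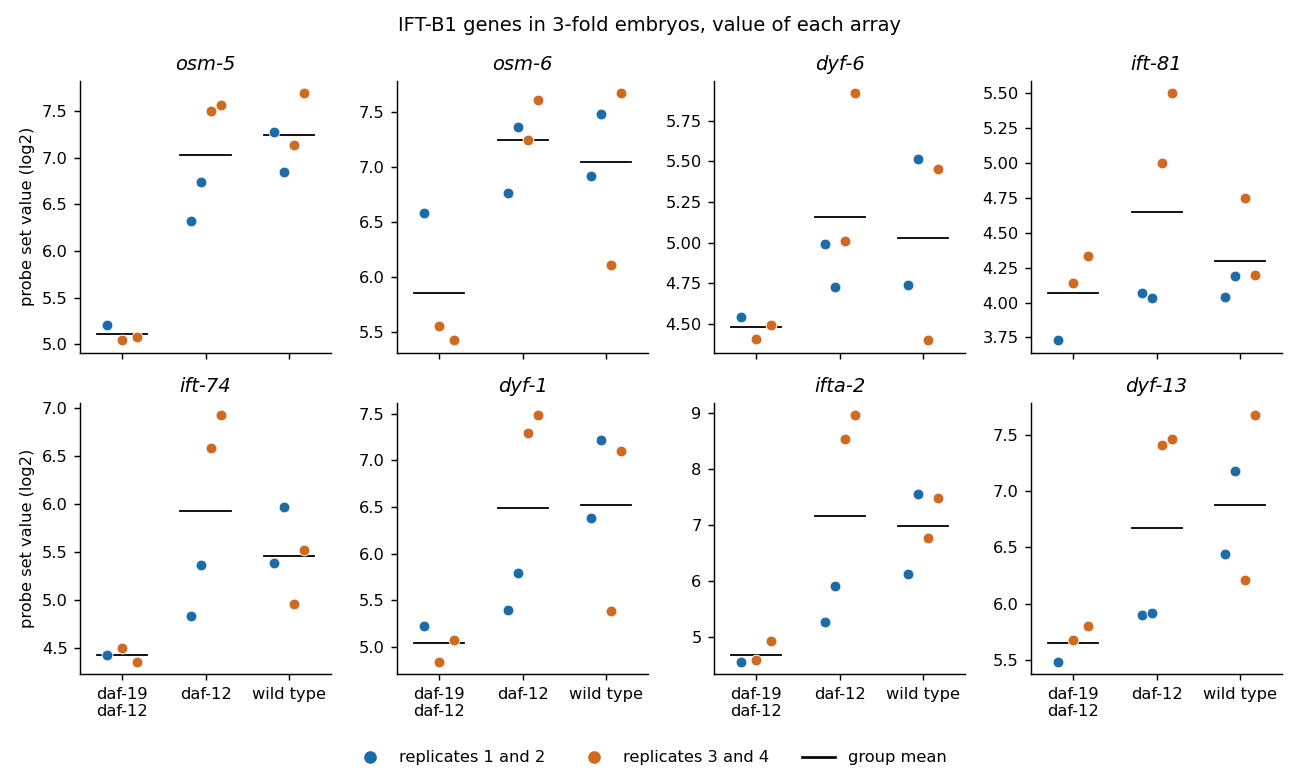
Log2 value of each array for the probe set that stands for each gene, by genotype, with replicates 1 and 2 in blue, replicates 3 and 4 in orange, and the group mean as a bar. The double mutant lies below the other groups in osm-5, ift-74, dyf-1, ifta-2 and dyf-13, and overlaps at least 1 of them in osm-6, dyf-6 and ift-81.

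The gene osm-5 encodes the worm counterpart of IFT88, a scaffold of the complex B core built of tetratricopeptide repeats. Its brighter probe set read 5.21, 5.05 and 5.08 on double mutant arrays 1-2, 3 and 4. It read 6.32, 6.74, 7.498 and 7.57 on daf-12 arrays 1 to 4, and 7.27, 6.85, 7.14 and 7.69 on wild type arrays 1 to 4. The double mutant arrays spanned 0.164, and each lay more than 1 log2 unit below every array of the other genotypes. The difference was -2.13 ± 0.30 (SE) against wild type, which is 4.36-fold lower (limma adjusted p = 0.0191, n = 3 and 4). Against the daf-12 single mutant it was -1.92 ± 0.30, or 3.78-fold lower (limma adjusted p = 0.0616). With a block for the set of arrays this second difference was -1.998 and was called (adjusted p = 0.00877), while with the replicate number as a block it was not (adjusted p = 0.0505).

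The other osm-5 probe set has nearly the same overall mean, 6.57 against 6.58, and differed less. It read 5.51, 5.90 and 5.998 in the double mutant, 6.55, 6.43, 7.42 and 7.44 in the daf-12 single mutant, and 6.56, 7.09, 6.54 and 6.86 in wild type. Its double mutant arrays too lay below all others, but the difference was -1.16 ± 0.28 against the daf-12 single mutant (limma adjusted p = 0.427), and it was -0.96 ± 0.28 relative to wild type (limma adjusted p = 0.831). The call of osm-5 against wild type therefore rests on 1 of its 2 probe sets. Averaging both gave -1.54, with an adjusted p of 0.0578. The call was also lost without double mutant array 1-2 (adjusted p = 0.0559), array 3 (0.15) or array 4 (0.156), and without wild type array 1 (0.0649), array 3 (0.0739) or array 4 (0.0714).

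The gene ifta-2, a Rab-like small GTPase related to IFT22, had the largest differences of the 8. Its value was 4.56, 4.59 and 4.92 in the double mutant, 5.27, 5.90, 8.54 and 8.96 in the daf-12 single mutant, and 6.12, 7.56, 6.77 and 7.49 in wild type. No double mutant array reached any array of the other genotypes, but the daf-12 arrays alone spanned 3.69. The difference was -2.48 against the daf-12 single mutant, with a 95% interval from -4.19 to -0.76 (limma adjusted p = 0.732). Against wild type it was -2.30, from -4.01 to -0.58 (limma adjusted p = 1). These intervals exclude 0 for this gene taken alone, and the adjusted p-values count all probe sets tested. The fit pools the spread of the 3 genotypes. For ifta-2 the SD was 0.20 in the double mutant, 1.85 in the daf-12 single mutant and 0.68 in wild type. Fitted on the 2 compared groups alone, limma gave an adjusted p of 0.821 against the daf-12 single mutant and 0.0985 against wild type, neither called.

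The tetratricopeptide proteins DYF-1 (IFT70) and DYF-13 (IFT56) bind the complex, and in C. elegans DYF-1 is needed for the kinesin OSM-3 to move trains. The gene dyf-1 read 5.22, 4.84 and 5.07 in the double mutant, 5.40, 5.79, 7.30 and 7.49 in the daf-12 single mutant, and 6.39, 7.21, 5.39 and 7.10 in wild type. Its highest double mutant array lay just below wild type array 3 and daf-12 array 1, while the daf-12 arrays alone spanned 2.09. The differences were -1.45 ± 0.54 and -1.48 ± 0.54 (SE) against the daf-12 single mutant and wild type. The gene dyf-13 read 5.48, 5.68 and 5.80 in the double mutant, 5.90, 5.92, 7.41 and 7.47 in the daf-12 single mutant, and 6.44, 7.18, 6.21 and 7.67 in wild type. Again the double mutant did not overlap with the others, with daf-12 arrays 1 and 2 just above it. The differences were -1.02 ± 0.45 and -1.22 ± 0.45.

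The coiled-coil proteins IFT-74 and IFT-81 pair within the core, and their counterparts in Chlamydomonas and human bind tubulin. The gene ift-74 was steady in the double mutant at 4.43, 4.50 and 4.35. It read 4.83, 5.37, 6.59 and 6.93 in the daf-12 single mutant and 5.39, 5.97, 4.95 and 5.52 in wild type, all above the double mutant. The difference was -1.50 ± 0.44 against the daf-12 single mutant (limma adjusted p = 0.682), and it was -1.03 ± 0.44 relative to wild type (limma adjusted p = 1).

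For its partner ift-81 the brighter probe set read 3.73, 4.14 and 4.34 in the double mutant, 4.07, 4.03, 4.999 and 5.50 in the daf-12 single mutant, and 4.04, 4.19, 4.75 and 4.199 in wild type, and the groups overlapped. The difference was -0.58, with a 95% interval from -1.34 to 0.18, against the daf-12 single mutant and -0.23, from -0.99 to 0.53, against wild type. Without daf-12 array 4 the first of these was -0.30, and the second was -0.057 without double mutant array 1-2, -0.36 without double mutant array 4 and -0.0747 without wild type array 3. The second probe set gave -0.74 and -0.19. These intervals do not show that ift-81 was the same in the genotypes, since each also holds a difference close to or beyond -1. Over all arrays together, both ift-81 probe sets averaged under 4.74, the limit of the lowest 25% of all probe sets. The averages of the other 8 member probe sets lay above it. In the double mutant alone, ift-74 (4.43), dyf-6 (4.48) and ifta-2 (4.69) also averaged below this limit. Whether such low values narrowed their differences or spread was not tested.

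The gene osm-6 encodes the IFT52 subunit and dyf-6 the IFT46 subunit, whose Chlamydomonas counterparts bind each other in the core. The gene osm-6 read 6.58, 5.55 and 5.42 on double mutant arrays 1-2, 3 and 4, so 1 array stood more than 1 log2 unit above the other 2. It read 6.77, 7.36, 7.24 and 7.61 in the daf-12 single mutant, all above the double mutant, and 6.92, 7.49, 6.11 and 7.67 in wild type, of which array 3 lay below double mutant array 1-2. The differences were -1.39 ± 0.39 and -1.20 ± 0.39 (limma adjusted p = 0.637 and 1). The gene dyf-6 read 4.54, 4.41 and 4.50 in the double mutant, 4.99, 4.73, 5.01 and 5.92 in the daf-12 single mutant, and 4.74, 5.52, 4.401 and 5.45 in wild type. It lay below every daf-12 array in the double mutant but overlapped wild type array 3. The differences were -0.68, with a 95% interval from -1.38 to 0.03, and -0.54, from -1.25 to 0.16. Without daf-12 array 4 the first of these was -0.43.

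**Figure D2:**
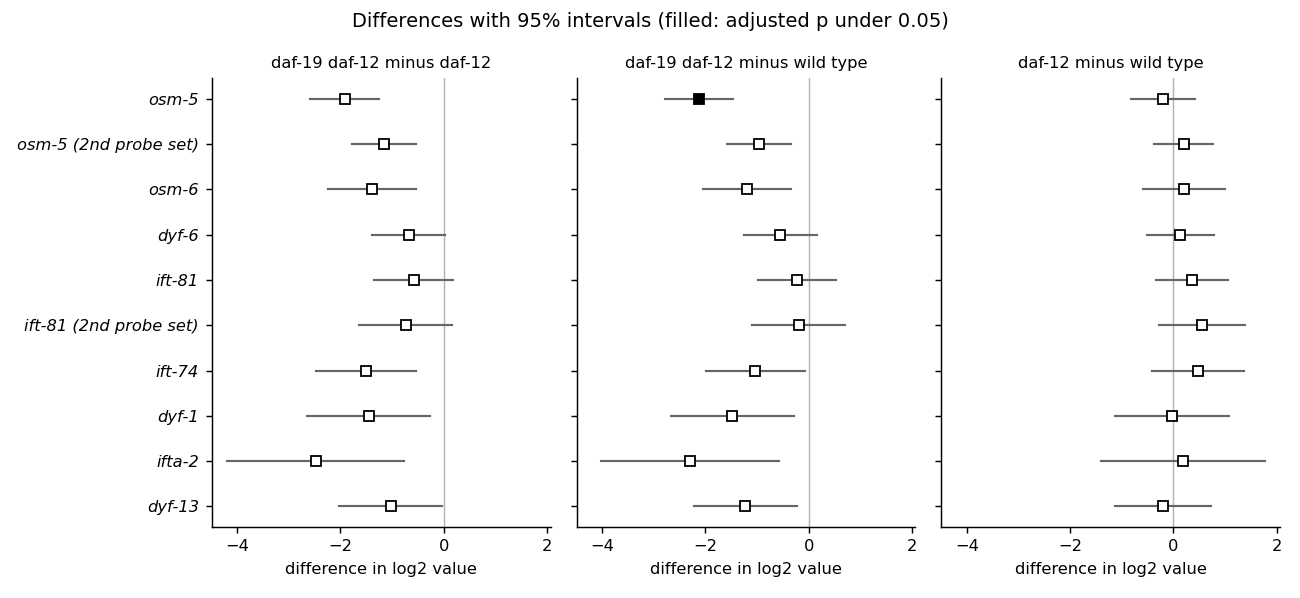
Difference in log2 value for each of the 10 probe sets in each comparison, first genotype minus second, with the 95% interval of the limma fit, filled where the adjusted p is under 0.05. All 10 probe sets lie below 0 in both comparisons of the double mutant, and the 1 filled point is the brighter osm-5 probe set against wild type.

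Counts over the members were read against all named genes. Against the daf-12 single mutant, 0 of 8 genes were called lower, where 0.0584% of all genes were. At an unadjusted p under 0.05 the count was 6 of 8, namely osm-5, osm-6, ift-74, dyf-1, ifta-2 and dyf-13, where 2.67% of all genes were lower. The arrays did not overlap, with the double mutant lower, in 7 of 8, where 3.23% of all genes did so, and ift-81 was the exception. With a block for the set of arrays, limma called 1 of 8, osm-5, where 0.204% of all genes were called lower.

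Against wild type, 1 of 8 was called lower, where 0.105% of all genes were. The same 6 genes had an unadjusted p under 0.05, where 2.19% of all genes were lower. The arrays did not overlap in 5 of 8, osm-5, ift-74, dyf-1, ifta-2 and dyf-13, where 2.82% of all genes lay wholly lower. With a block for the set of arrays the count remained 1 of 8, again osm-5 (adjusted p = 0.00369), where 0.222% of all genes were called.

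Between the daf-12 single mutant and wild type, no member passed the test. Of the 8 members, 0 were called in either direction by limma, where 0.00584% of all genes were. None had an unadjusted p under 0.05, where 2.98% of all genes did, so 0 of 8 is near that share. Their arrays overlapped in all 8, where 1.58% of all genes did not overlap. Means were higher in the daf-12 single mutant for 5 genes and lower for osm-5, dyf-1 and dyf-13, with a median of 0.16. The differences ran from -0.205 in osm-5 to 0.47 in ift-74, whose 95% interval was -0.42 to 1.37. The widest interval was that of ifta-2, from -1.41 to 1.77, which holds differences of more than 2-fold either way.

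Within the 2 sets of arrays the differences had opposite signs. On replicates 1 and 2 all 8 genes were lower in the daf-12 single mutant than in wild type, with a median of -0.55. On replicates 3 and 4 all 8 were higher, with a median of 0.66. For ifta-2 the difference was -1.26 in the first set and 1.62 in the second, for dyf-1 -1.21 and 1.15, and for ift-74 -0.58 and 1.52. In the same order osm-5 gave -0.53 and 0.12.

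The high arrays were daf-12 arrays 3 and 4. In ift-81, ift-74, dyf-1 and ifta-2 they were the 2 highest of the 11, and in all members but osm-6 both lay above daf-12 arrays 1 and 2. Averaged over the 8 genes, deviations from each gene's own mean were -0.91, -1.03 and -0.94 on double mutant arrays 1-2, 3 and 4. They were -0.43, -0.15, 0.95 and 1.30 on daf-12 arrays 1 to 4, and 0.04, 0.62, -0.16 and 0.72 on wild type arrays 1 to 4. The double mutant was thus nearly even across its arrays, while both other genotypes held high and low arrays. Its means of dyf-6, ift-81, ift-74 and ifta-2 were low values, under 4.74.

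**Figure D3:**
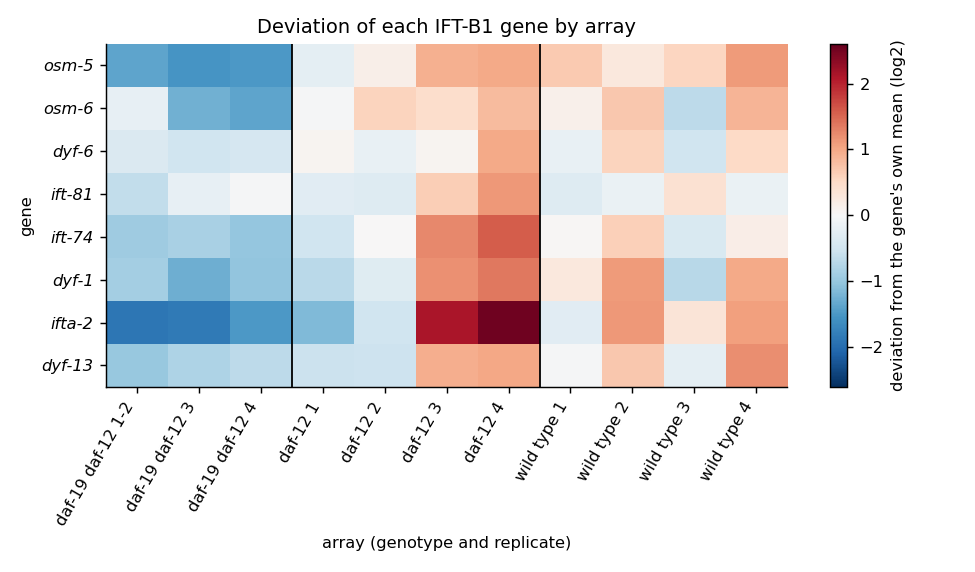
Deviation of each gene from its own mean over the 11 arrays, in log2 units, with the arrays of the double mutant, the daf-12 single mutant and wild type from left to right. The double mutant columns are low throughout except osm-6 on array 1-2 and ift-81 on arrays 3 and 4, and daf-12 arrays 3 and 4 are the highest columns.

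Against the daf-12 single mutant, the double mutant had a median difference of -0.46 on replicates 1 and 2, where it has 1 array, and of -2.14 on replicates 3 and 4. All 8 genes were lower in each set. The difference in ifta-2 was -1.03 and then -3.99, in dyf-1 -0.38 and -2.44, in ift-74 -0.67 and -2.33, and in osm-5 -1.32 and -2.47. Fitted on replicates 3 and 4 alone, with 2 arrays of each genotype, limma called 5 of 8 genes lower, osm-5, osm-6, ift-74, dyf-1 and ifta-2, where 5.18% of all genes were called lower.

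Against wild type the double mutant showed similar medians in the sets, -1.29 on replicates 1 and 2 and -1.25 on replicates 3 and 4. Fitted on replicates 3 and 4 alone, osm-5 and ifta-2 were called, 2 of 8, where 0.672% of all genes were called lower.

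The change between sets was tested as an interaction of genotype and set in limma. For the double against the daf-12 single mutant it was negative in 8 of 8 genes, from -0.69 in ift-81 to -2.96 in ifta-2, and 0 were called after adjustment (adjusted p from 0.113 to 0.636). At an unadjusted p under 0.05 it was negative in 4 of 8 genes, where 9.59% of all genes were. For the daf-12 single mutant against wild type it was positive in 8 of 8, with 0 called (adjusted p from 0.149 to 0.583) and 5 of 8 at an unadjusted p under 0.05, where 9.83% of all genes were. For the double mutant against wild type it was positive in 5 and negative in 3, with 0 called and 0 at an unadjusted p under 0.05, where 8.09% of all genes were in either direction.

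**Figure D4:**
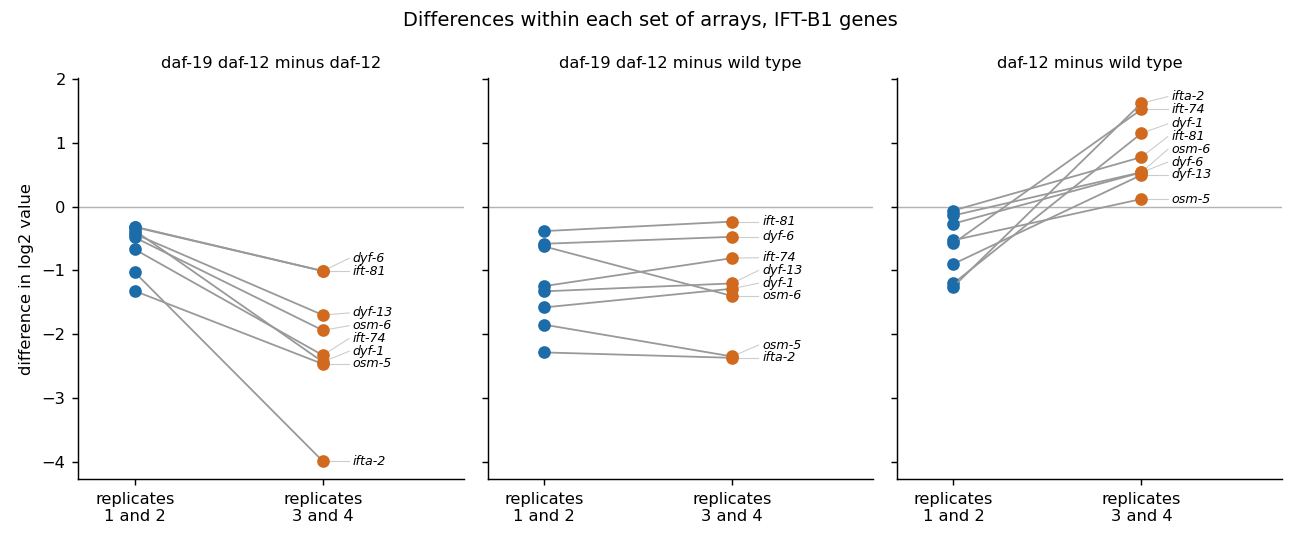
Difference in log2 value of each gene within replicates 1 and 2 (blue) and within replicates 3 and 4 (orange), first genotype minus second, for the 3 comparisons. Differences between the double and the single mutant are larger in the second set, those between the double mutant and wild type are similar, and those between the daf-12 single mutant and wild type turn from below 0 to above 0.

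Some other gene groups also differed between the sets of daf-12 arrays. The 11 neuronal markers, among them unc-119 and rab-3, had mean deviations of -0.30, -0.38, 0.28 and 0.48 on daf-12 arrays 1 to 4. None of the double mutant arrays lay above 0, the lowest at -0.23, and wild type ranged from -0.22 to 0.40. The 10 genes of ciliated sensory neurons outside the cilium's structure, such as tax-4 and odr-3, ranged from -0.07 to -0.01 in the double mutant, -0.16 to 0.22 in the daf-12 single mutant and -0.12 to 0.30 in wild type. The 8 core genes ranged from -1.03 to -0.91 in the double mutant. The mean of the 10 genes lay between 6.07 and 6.53 over the arrays, near the array medians. Whether the number of ciliated neurons differed between the genotypes was not tested. On daf-12 arrays 1 to 4 the 5 pharynx markers stood at -0.30, -0.54, 0.22 and 0.63. The B2 genes stood there at -0.59, -0.35, 1.02 and 1.26, and the complex A genes at -0.40, -0.18, 0.71 and 0.86. The split of the daf-12 arrays was thus also present in some lists outside the core genes and the neuronal markers. Markers of intestine (0.05, -0.02, 0.02 and 0.01), glia (-0.27, -0.01, -0.14 and -0.09) and muscle (0.06, -0.18, 0.05 and 0.30) did not show it. Those of epidermis stood at -0.09, -0.04, -0.11 and -0.32, lower on arrays 3 and 4.

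Genes of DNA replication and the cell cycle went the opposite way. These were 10 genes, the mcm genes, pcn-1, rnr-1 and the cyclin genes cye-1 and cyb-1. They had mean deviations of -0.50 and -0.53 on daf-12 arrays 3 and 4, against 0.13 and -0.14 on its arrays 1 and 2. They stood at -0.22, 0.65 and 0.49 on double mutant arrays 1-2, 3 and 4. On wild type arrays 1 to 4 they stood at -0.20, -0.15, 0.47 and 0.003. Array 3 was the lowest wild type array in osm-6, dyf-6, ift-74, dyf-1 and dyf-13. In ift-81 it was the highest, and in osm-5 and ifta-2 it was neither. The part of these groups in the differences of the core genes was not tested.

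The members differed in how alike their centred values were. Likeness was measured as the root-mean-square difference between the log2 profiles of 2 genes over the 11 arrays, each centred on its own mean. This measure counts the size of the changes as well as their order. A gene with larger changes can thus lie far from the others and still rise and fall with them. The closest pair was dyf-1 and dyf-13, at 0.325, followed by ift-74 and dyf-1 at 0.363. The farthest pair was dyf-6 and ifta-2, at 1.15. Against the mean profile of all 8, ift-74 (0.233), dyf-13 (0.246) and dyf-1 (0.288) lay nearest and ifta-2 (0.749) farthest. That mean includes the gene itself.

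Among genes outside the core, the 6 nearest to that mean profile were K12B6.4 (0.223), che-2 (0.247), che-3 (0.254), bbs-2 (0.256), cwp-4 (0.262) and ifta-1 (0.277). Of these, che-2 encodes the peripheral complex B subunit IFT80, che-3 the heavy chain of the transport dynein, bbs-2 a BBSome subunit and ifta-1 a complex A subunit. The cwp genes are named for coexpression with the polycystins of male sensory neurons. The nearest gene, K12B6.4, differed by -1.37 between the double and the single mutant and by -0.95 between the double mutant and wild type. None of the 6 was called (limma adjusted p from 0.195 to 0.732 and from 0.0802 to 1).

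The rest of the transport machinery mostly had lower means in the double mutant too. The peripheral B2 genes (5 of 6 measured) had a median of -1.26 against the daf-12 single mutant and -1.23 against wild type, with 0 called. With a block for the set of arrays, dyf-3 was called against wild type (adjusted p = 0.0258). In this group che-13 (IFT57) had the lowest values, -2.05 and -1.78, while dyf-11 (IFT54) stood above 0 at 0.61 and 1.37. The 6 complex A genes had medians of -1.17 and -1.17 with 0 called, and their lowest values were those of ift-139, -1.71 and -1.87. In contrast ift-43 stood near 0, at 0.14 and -0.06. With the set block ift-139 was called in both comparisons (adjusted p = 0.0477 and 0.0243).

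The BBSome, a coat complex that travels with the trains, had medians of -1.45 and -1.64 over 6 of 7 genes. Called lower were bbs-5 against both (-1.51 and -1.89, limma adjusted p = 0.0326 and 0.00675), and bbs-8 (-1.72, adjusted p = 0.0191) and osm-12 (-1.60, adjusted p = 0.0106) against wild type. With a replicate block the call of osm-12 was lost (adjusted p = 0.055). With the set block bbs-8 was also called against the daf-12 single mutant (adjusted p = 0.013) and bbs-1 against wild type (adjusted p = 0.035). The 8 motor genes had medians of -0.46 and -0.46. The light chain gene dylt-2 was called at -2.81 and -3.17 (limma adjusted p = 0.0235 and 0.00675), and with a replicate block the first of these calls was lost (adjusted p = 0.0505). By contrast the kinesin genes osm-3, klp-11, klp-20 and kap-1 ran from -0.52 to 0.33 against the daf-12 single mutant and from -0.51 to -0.09 against wild type. The motor genes che-3 (-1.47 and -1.24) and xbx-1 (-1.73 and -1.38) were lower but not called, and dhc-3 stood at -0.37 and -0.18. On replicates 1 and 2 and on replicates 3 and 4, the B2 median against the single mutant was -0.69 and -1.83, and that of complex A -0.57 and -1.72. In the same sets the BBSome median was -0.84 and -1.81, and the motor median -0.22 and -0.88. Differences between these lists and the core genes were not tested.

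**Figure D5:**
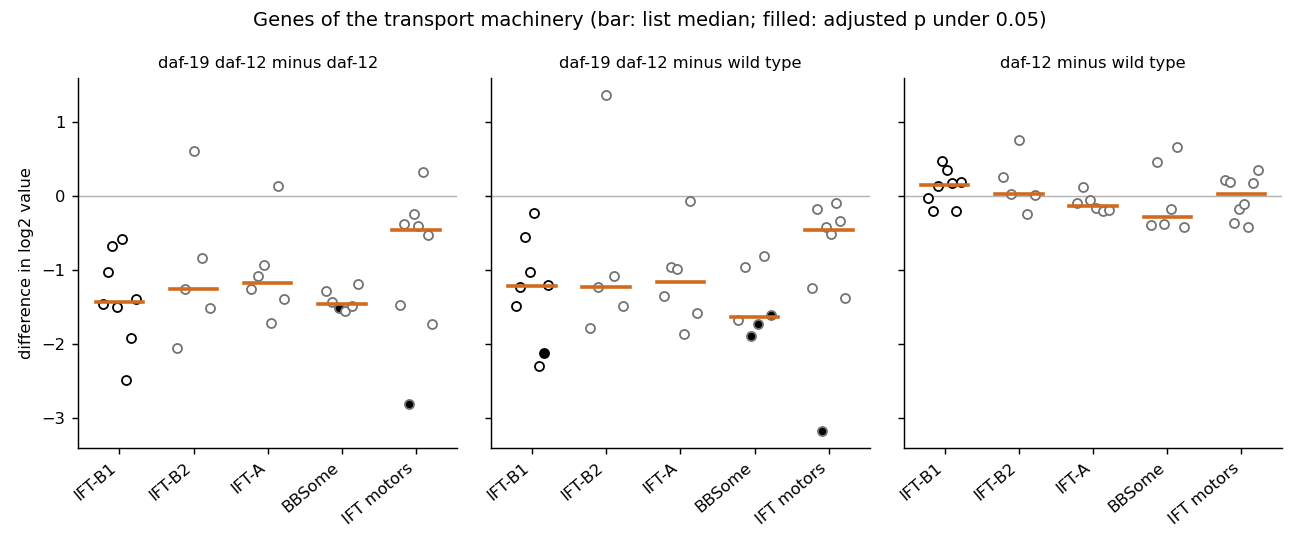
Difference in log2 value of each gene of 5 lists of the transport machinery, first genotype minus second, with the list median as a bar and filled points for an adjusted p under 0.05. The core (B1), B2, complex A and BBSome medians lie between -1.64 and -1.17 in both comparisons of the double mutant, the motor median at -0.46, and between the daf-12 single mutant and wild type they lie between -0.28 and 0.16.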

How the data were processed

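Values were the deposited probe set values of 12 Affymetrix arrays on a log2 scale, made with RMA per the submitters' processing notes, without a version, and 0 columns were left unmapped. The 77 control probe sets were left out. Probe sets were named from GEO's platform annotation, and the brightest probe set over the arrays stood for a gene with several. A table of assembly WBcel235 was used for names alone. limma 3.58.1 in R 4.3.3 (lmFit, eBayes, tested on simulated data) fitted the 3 group means over 11 arrays, without any block, with two-sided tests adjusted by Benjamini-Hochberg over 22548 probe sets and called at an adjusted p under 0.05. Whether replicates are separate cultures is not stated in the labels: p-values measure only the spread between these samples, which may be technical. Precision is limited by how few arrays there are.

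Deviations of same-numbered arrays from their group means had r across probe sets of 0.22 to 0.29 between double and daf-12 single mutant, 0.33 to 0.49 between double mutant and wild type, and -0.03 to 0.67 between daf-12 single mutant and wild type. Differently numbered arrays of the same set had r of 0.13 and 0.32, of 0.21 and 0.34, and of -0.14 to 0.68 in the same order. These values cannot tell the replicate number from the set. Every same-numbered pair with the double mutant passed 0.1, and a replicate block, with array 1-2 entered as number 1, was an alternative fit. It is nested in the sets of arrays, which the spike-ins showed and no label names. The interaction of genotype and set was added after seeing the data. The members, lists and alternatives were chosen with earlier results of these data known. Besides the members and daf-19, genes were named if called, with or without a block, if they had the largest change in their list, or if among the 6 nearest profiles. The kinesin genes, xbx-1, dhc-3 and ift-43 were added after their values were seen. Promoter motifs and sequences were not analysed here.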

Additional observations from a re-analysis of the deposited data

How the results depend on the processing

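All 8 genes stayed lower in the double mutant, against the daf-12 single mutant and against wild type, in each alternative that fitted them. Their median against wild type ran from -1.478 to -0.997 over them. Against the daf-12 single mutant the median was -0.457 on replicates 1 and 2 alone and -2.136 on replicates 3 and 4 alone. The count of called genes there, 0, became 5 on replicates 3 and 4 alone. It became 1, osm-5 each time, with 12 columns as separate samples, with a block for the set of arrays, with quantile normalization applied again, with median centring and without the lowest 25% of probe sets (7 members left). Leaving out 1 array gave 0 to 1, and the 1 came without daf-12 array 1 (adjusted p = 0.0242). Against wild type the count of 1 became 2 on replicates 3 and 4 alone, 0 on replicates 1 and 2 alone, 0 with the mean of a gene's probe sets, and 0 to 1 without 1 array. A replicate block gave 0, 1 and 0 called genes in the 3 comparisons and changed no member's call, whether array 1-2 had number 1 or, in an alternative chosen after seeing the data, number 2 (osm-5 adjusted p = 0.0505 and 0.0521 against the single mutant, 0.026 and 0.0222 against wild type). On replicates 1 and 2 the double mutant's lone array was assumed to vary like the other groups. Between the daf-12 single mutant and wild type 0 members were called in any alternative, and directions turned. The median was -0.552 on replicates 1 and 2 alone, where osm-6 (-0.14), dyf-6 (-0.27), ift-81 (-0.0625), ift-74 (-0.576) and ifta-2 (-1.255) were below 0. On replicates 3 and 4 alone osm-5 (0.118), dyf-1 (1.148) and dyf-13 (0.50) were above 0. Leaving out 1 array gave -0.38 to 0.032 for osm-5, -0.11 to 0.41 for osm-6, -0.12 to 0.30 for dyf-6, -0.41 to 0.34 for dyf-1, -0.41 to 0.815 for ifta-2 and -0.47 to 0.0641 for dyf-13. The causes of these changes were not tested. Signal over background was not analysed here.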
